A study of Mus musculus with 9 samples.

Results

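The genes described here encode the alpha chains of collagens. They were taken as all protein-coding genes whose GENCODE M21 symbol has the form Col, number, a, number, and 44 of the 49671 genes in the count tables met this rule. By the architecture of the protein, 11 are fibrillar, 9 belong to basement membranes and anchoring structures, 9 are fibril-associated, 6 are the beaded type VI chains, 4 are transmembrane and 5 fall in none of these classes (Col8a1, Col8a2, Col10a1, Col26a1 and Col28a1).

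Collagens are built as trimers of alpha chains wound into a triple helix, and each type uses its own set of chains. Fibrillar collagens form the banded fibres of connective tissue, type IV forms the sheet under epithelia and around vessels, and type VI forms beaded filaments around cells. Pancreatic ductal carcinoma is known for a dense stroma rich in fibrillar collagen, most of it made by fibroblasts, while carcinoma cells themselves can make basement membrane chains. CD49b is the alpha 2 integrin subunit, encoded by Itga2, and pairs with the beta 1 subunit as a receptor for collagen.

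The 9 libraries of poly(A) RNA, all from mouse, fall into 4 groups. KPC49bKO tumours (KO, 2 libraries) and KPCWT tumours (WT, 3 libraries) grew under the skin of the flank in immunocompetent C57BL/6 mice that matched the cells genetically, and were broken up with enzymes before RNA was extracted. KPC49bKO cells (2 libraries) and KPCWT cells (2 libraries) were grown in serum-containing medium. KPCWT cells are mouse pancreatic cancer cells that have CD49b, and KPC49bKO cells are their counterpart with CD49b knocked out. Each genotype is thus 1 cell line, so a difference between genotypes may also be one between lines, and these cannot be told apart. The libraries are called biological replicates, with no statement of whether they came from separate mice or cultures, and p-values cover the spread between these libraries. The labels number the KO tumours 1 and 2, but the second KO tumour column is numbered 3 and is called KO tumour 3 here. Its group is known, but its match to a labelled sample is not.

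Library totals ranged from 16032912 to 19562695 counts in tumours and from 17738774 to 21247023 in culture. Itga2 was at 51.8 and 72.3 CPM (counts scaled to the size of the library) in the KO tumours, against 139, 166 and 158 CPM in the WT tumours. In culture it was at 79.9 and 85.2 CPM in KO cells, against 144 and 113 CPM in WT cells. It had counts in every library and was lower in KO in both settings, with log2 fold changes of -1.32 ± 0.18 in tumours and -0.64 ± 0.17 in culture (SE, edgeR adjusted p = 0.00602 and 0.0135). The keratin-rich epithelial marker list summed to 5520 to 11600 CPM in all 9 libraries. WT tumours 1 and 2 were more alike than any other pair of one group, with a chi-square per gene of 6.55, against 25.2 to 43.9 for the other pairs. Mitochondrially encoded transcripts took 2.69 and 3.33% of counts in KO tumours and 1.9 to 2% in WT tumours. In culture the share was 2.05 and 2.16% in KO cells and 3.39 and 4.72% in WT cells.

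Collagen chains together took 0.169 and 0.229% of counts in the KO tumours, against 0.37, 0.47 and 0.682% in the WT tumours. In culture they took 0.064 and 0.0858% in KO cells and 0.071 and 0.0985% in WT cells. Of the 44 genes, 15 had no count in either KO culture, 10 had none in either WT culture, 7 had none in either KO tumour, and each had at least 1 count in a WT tumour. In all, 33 genes passed the low-count filter in at least 1 comparison. The 11 that passed in none were Col2a1, Col6a4, Col6a5, Col6a6, Col9a1, Col9a2, Col11a1, Col17a1, Col19a1, Col22a1 and Col25a1, whose largest count in any library was 47.

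**Figure D1:**
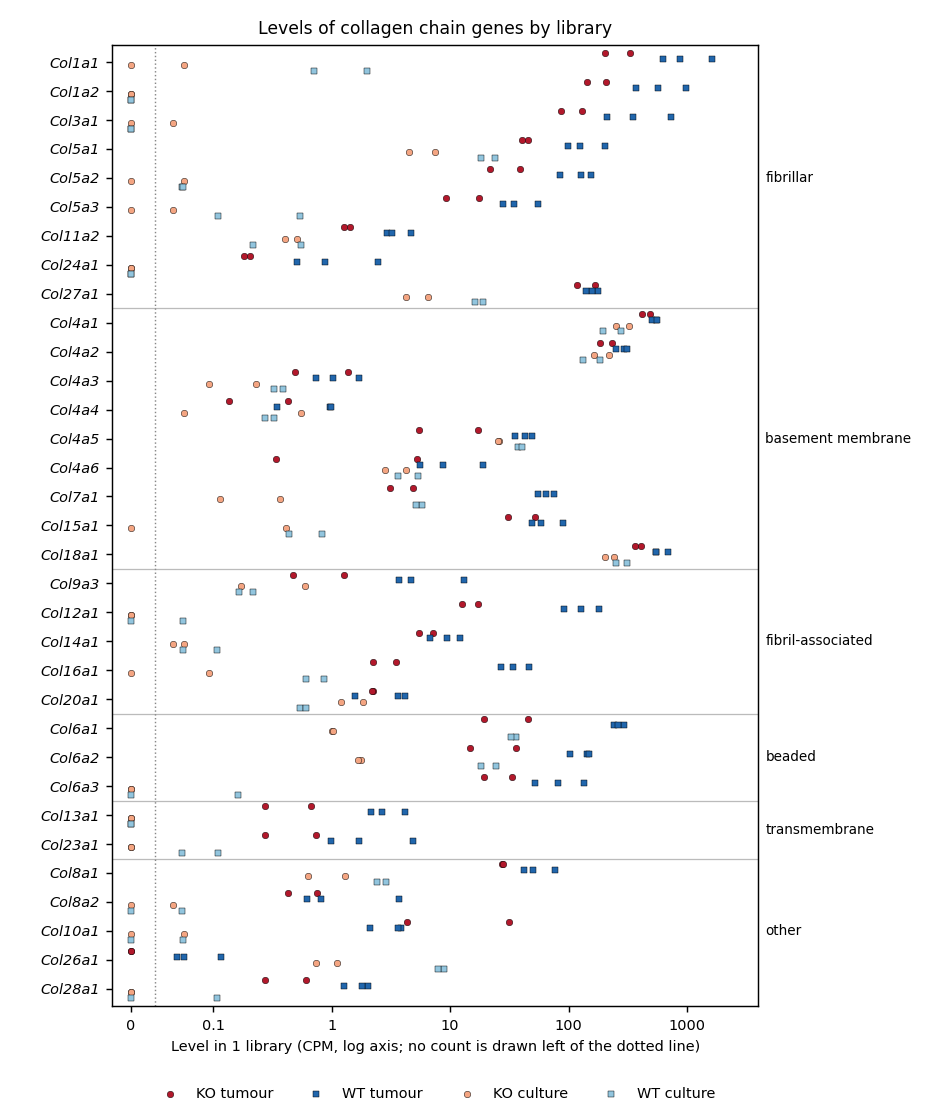
Level of each of the 33 tested collagen chain genes in every library (CPM, log axis), grouped by class, with KO as circles, WT as squares, tumours dark and culture pale. Col4a1, Col4a2 and Col18a1 lie at 133 to 696 CPM in all 9 libraries, whereas Col1a1, Col1a2 and Col3a1 lie at 86.9 to 1620 CPM in tumours and at 2 CPM or less in culture.

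Per length of exon, taken as the union of a gene's exons, the order of the chains differed between the groups. This order depends on the length taken. For Col1a2 the union was 12426 bases, against 5348 for its longest transcript, so its level per kb is lower by the union. In KO tumours the order was Col4a1 (61.1 ± 6.7 CPM per exon kb), Col18a1 (55.1 ± 3.86), Col1a1 (40.7 ± 13.7) and Col4a2 (31.7 ± 5.15; SD, n = 2). In WT tumours it was Col1a1 (159 ± 78.9 CPM per exon kb), Col18a1 (85.2 ± 12.1), Col4a1 (71.7 ± 3.76), Col6a1 (60.8 ± 5.95) and Col1a2 (51.2 ± 24.8; SD, n = 3). Neighbours in these orders lay within the sum of their SDs, apart from Col4a1 and Col6a1 in WT tumours. In KO cultures Col4a1 (38.6 ± 6.45 CPM per exon kb), Col18a1 (31.9 ± 3.98) and Col4a2 (28.9 ± 5.95) led, and the next, Col4a5, was at 3.81 ± 0.0481 (SD, n = 2). In WT cultures Col18a1 (40.2 ± 6.38 CPM per exon kb), Col4a1 (31.7 ± 7.66) and Col4a2 (23.9 ± 5.5) led, followed by Col6a1 at 7.81 ± 0.516 (SD, n = 2).

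The trio Col4a1, Col4a2 and Col18a1 made up 53.4 to 56.8% of the collagen level per length in KO tumours and 26.5 to 37.9% in WT tumours. In culture it made up 93.6 to 93.8% in KO cells and 78.8 to 81.7% in WT cells. Type I and III chains (Col1a1, Col1a2 and Col3a1) made up 21.3 to 26.9% in KO tumours, against 30.2 to 48.1% in WT tumours. The KO and WT ranges did not overlap in any of these 3 comparisons. These shares also use the union of exons, and their size depends on that length.

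**Figure D2:**
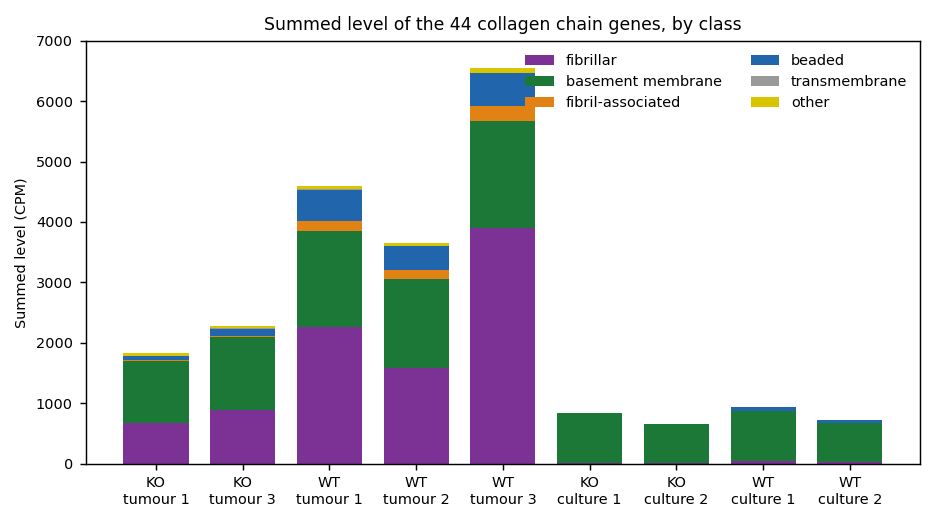
Summed level of the 44 collagen chain genes in each library (CPM), stacked by class. The fibrillar sum is 678 and 881 CPM in the KO tumours against 1580 to 3900 CPM in the WT tumours, while the basement membrane sum forms nearly the whole bar in all 4 cultures.

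Type IV chains are encoded by 6 genes that lie as head-to-head pairs, each pair transcribed away from a shared region. Col4a1 (ENSMUSG00000031502) starts at base 11312826 of chromosome 8 and is read on the minus strand, and Col4a2 (ENSMUSG00000031503) starts at base 11312805 and is read on the plus strand, so that 22 exon bases are shared on opposite strands. Col4a4 and Col4a3 meet on chromosome 1 between bases 82586849 and 82586921, and Col4a6 and Col4a5 meet on the X chromosome between bases 141474076 and 141475385 (GRCm38, GENCODE M21). The promoter windows of the first pair are shown because both genes were abundant in every library and share the stretch between them. Each window runs from 250 bases before to 50 bases after the RefSeq start site (GRCm38.p6), 5′ to 3′ on the gene's own strand. Col4a2 covers chr8:11312555-11312854 (plus strand) and Col4a1 covers chr8:11312777-11313076 (minus strand), an overlap of 78 bases with the start sites 21 bases apart. Capitals mark the CCAAT box and the GC box (GGGCGG), read on either strand.
Col4a2: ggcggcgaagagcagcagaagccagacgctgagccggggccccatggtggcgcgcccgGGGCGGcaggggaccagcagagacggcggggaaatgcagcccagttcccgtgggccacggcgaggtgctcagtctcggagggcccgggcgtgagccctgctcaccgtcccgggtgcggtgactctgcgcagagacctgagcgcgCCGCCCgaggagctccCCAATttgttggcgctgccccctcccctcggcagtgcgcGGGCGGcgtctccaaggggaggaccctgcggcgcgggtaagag
Col4a1: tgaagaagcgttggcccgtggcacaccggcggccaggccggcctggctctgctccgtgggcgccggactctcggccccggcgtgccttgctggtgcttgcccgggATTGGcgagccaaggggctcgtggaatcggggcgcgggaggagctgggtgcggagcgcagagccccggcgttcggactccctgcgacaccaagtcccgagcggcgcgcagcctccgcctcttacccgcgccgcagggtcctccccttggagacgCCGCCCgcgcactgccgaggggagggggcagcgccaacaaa

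The GC box nearest the 3′ end of each window is the same stretch read from opposite strands. Among 38 windows of the 35 collagen chain genes that matched the RefSeq table, 13 held the CCAAT box and 23 held the GC box on either strand. Of all 32851 RefSeq promoter windows of this length, 37.4% held the CCAAT box and 35.7% held the GC box. TATAAA was in 5 of the 38, against 13.6% of all windows. The AP-1 pattern TGANTCA, also read on either strand, was in 1 of them, against 7.81% of all windows. These matches are letters in a window and were not related to any measured level.

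A further promoter, that of Col1a2 (chr6:4505368-4505667, plus strand, same build and capitals), belongs to a gene with no count in any culture and 142 to 974 CPM in tumours.
Col1a2: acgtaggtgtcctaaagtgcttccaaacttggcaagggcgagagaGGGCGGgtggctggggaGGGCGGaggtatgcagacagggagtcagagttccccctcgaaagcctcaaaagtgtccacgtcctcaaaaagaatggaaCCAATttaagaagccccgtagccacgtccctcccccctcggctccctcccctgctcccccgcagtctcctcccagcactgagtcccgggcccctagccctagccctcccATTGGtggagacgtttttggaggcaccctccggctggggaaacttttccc

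The first comparison asked how loss of CD49b related to collagen transcripts in the cancer cells alone. KO cultures had lower levels of type VI, type VII and several fibrillar chains than WT cultures, while the abundant type IV chains Col4a1 and Col4a2 did not pass the test. Of 15 chains tested, 10 fell, 1 rose (Col20a1) and 4 were not called, with a median log2 fold change of -1.71. Over all 13573 genes tested, 25.5% were called, 16.2% as lower and 9.27% as higher, and the median was -0.00. Groups did not overlap for 12 of the 15 chains, against 61.4% of all genes. Col1a1, Col7a1 and Col16a1 passed the low-count filter through the WT cultures alone, where they were high, so these counts describe the tested chains and not all 44.

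Both type VI chains tested in culture, which assemble into the beaded filaments around cells, fell. Col6a1 (ENSMUSG00000001119, chromosome 10, bases 76708792 to 76726168, minus strand) was at 1.01 and 1.03 CPM in KO cultures, against 35.8 and 32.6 CPM in WT cultures. Its neighbour on the same strand, Col6a2, was at 1.75 and 1.65 CPM in KO cultures, against 24.4 and 18.2 CPM in WT cultures. Both chains were low in both KO libraries and high in both WT libraries, with no overlap. They fell by 5.06 ± 0.24 and 3.64 ± 0.26 on the log2 scale (SE, adjusted p = 7.65e-08 and 1.02e-06). The third partner, Col6a3, had no count in KO cultures and 3 counts in WT cultures and was not tested.

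Among basement membrane and anchoring chains in culture, Col7a1 (ENSMUSG00000025650, chromosome 9, bases 108953586 to 108984875, plus strand), the chain of the anchoring fibrils that tie epithelia to the stroma, was at 0.368 and 0.114 CPM in KO cultures, against 5.79 and 5.16 CPM in WT cultures. The groups did not overlap, and Col7a1 fell by 4.40 ± 0.45 on the log2 scale (SE, adjusted p = 1.53e-05). Col4a5 was at 25.8 and 25.4 CPM in KO cultures, against 37.6 and 40.2 CPM in WT cultures, and fell by 0.60 ± 0.17 (SE, adjusted p = 0.0193). Its call was lost without KO culture 1, KO culture 2 or WT culture 2 (adjusted p = 0.0996, 0.1 and 0.134). Col4a1 was at 322 and 254 CPM in KO cultures, against 277 and 196 CPM in WT cultures, overlapping ranges with a log2 fold change of 0.29 ± 0.20 (SE, adjusted p = 0.321). Col4a2, Col4a6 and Col18a1 had log2 fold changes of 0.27, -0.33 and -0.33 and were not called. Col18a1 carries the fragment known as endostatin at its end.

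All 3 fibrillar chains tested in culture fell. Col5a1, a regulatory chain of fibril diameter, was at 7.41 and 4.5 CPM in KO cultures, against 23.7 and 18.2 CPM in WT cultures (log2 fold change -1.80 ± 0.26, SE, adjusted p = 0.000235). Col27a1, a fibrillar chain known from cartilage, was at 6.44 and 4.22 CPM in KO cultures, against 19 and 16.1 CPM in WT cultures (log2 fold change -1.71 ± 0.24, SE, adjusted p = 0.000234). KO and WT ranges were apart for both chains. Col1a1, the more abundant chain of the type I trimer, had 1 count in KO cultures and 50 counts in WT cultures, a ratio of scaled counts of 0.0187 with an exact (Clopper-Pearson) 95% interval of 0.000464 to 0.109 that covers counting error only. Its adjusted p was 0.00135, and its partner Col1a2 had no count in any of the 4 cultures.

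Of the other chains, Col16a1, a fibril-associated chain, had 2 counts in KO cultures and 27 in WT cultures, a ratio of 0.0692 (exact 95% interval 0.00798 to 0.275, adjusted p = 0.0067). Col26a1, first known from mouse testis and ovary, was at 1.1 and 0.741 CPM in KO cultures, against 8.87 and 7.9 CPM in WT cultures, and fell by 3.16 ± 0.31 on the log2 scale (SE, adjusted p = 1.25e-05). Col8a1, a short-chain network collagen, was at 1.29 and 0.627 CPM in KO cultures, against 2.43 and 2.85 CPM in WT cultures (log2 fold change -1.43 ± 0.40, SE, adjusted p = 0.0205). KO lay below WT without overlap for all 3 of these chains. Col20a1, a fibril-associated chain, was the 1 chain that rose, with 1.84 and 1.2 CPM in KO cultures, against 0.541 and 0.604 CPM in WT cultures (log2 fold change 1.41 ± 0.45, SE, adjusted p = 0.0376). It shares 79 exon bases on its strand with another annotated transcript, BX649560.1. The call of Col8a1 was lost without KO culture 2 (adjusted p = 0.0911) or WT culture 2 (0.121), and that of Col20a1 without KO culture 1 (0.291), WT culture 1 (0.206) or WT culture 2 (0.182).

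The second comparison asked the same of tumours, where RNA from the host's cells is mixed in. KO tumours had lower levels of type I, III, V, VI, VII and XII chains than WT tumours, and no chain passed the test as higher. Of 32 chains tested, 19 fell and 13 were not called, with 31 of 32 fold changes below 0 and a median log2 fold change of -1.81. Over all 16257 genes tested, 19.7% were called, 10.9% as lower and 8.78% as higher, with a median of -0.01. Groups did not overlap for 25 of the 32 chains, against 53.3% of all genes. Of the 32, 9 passed the low-count filter only with the WT tumours (Col4a3, Col4a4, Col4a6, Col8a2, Col9a3, Col13a1, Col23a1, Col24a1 and Col28a1), which favours a fold change below 0 for them, so the counts and the median describe the tested chains and not all 44. In bulk samples fewer cells of a type and less RNA per cell cannot be told apart.

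Over all genes, fewer were called between the tumour groups without any 1 of the WT tumours than with all 5 libraries. Loss of calls in those fits was therefore not peculiar to collagen chains. The number of collagen chains called in tumours also depended on single libraries. Without KO tumour 1 or without WT tumour 1 it was 7, without WT tumour 2 it was 12, without WT tumour 3 it was 14, and without KO tumour 3 it was 18 lower and 1 higher. Col5a2, Col6a1, Col6a2, Col7a1, Col12a1 and Col16a1 kept their calls with each of the 5 libraries left out in turn, while each of the other 13 lost its call without at least 1 library.

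**Figure D3:**
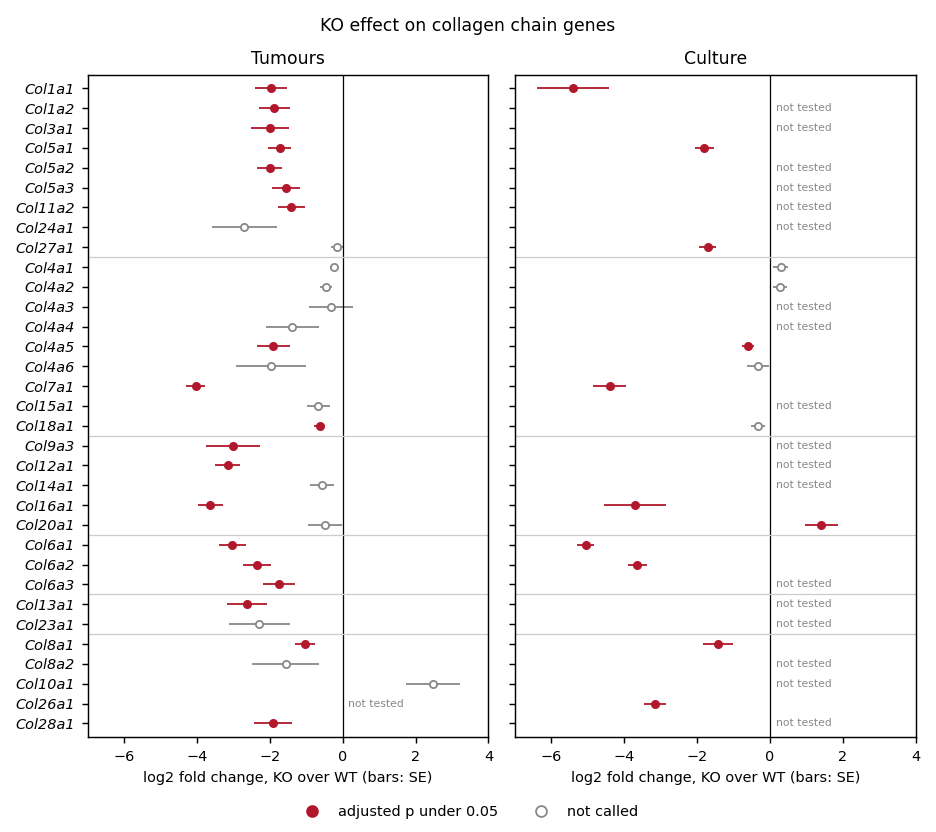
Log2 fold change of KO over WT with its SE for each collagen chain gene, in tumours (left) and culture (right), grouped by class as in the plot of levels, with filled points at an adjusted p under 0.05. In tumours 31 of 32 points lie below 0, and Col7a1, Col16a1 and Col6a1 lie below -3 in both settings; the culture points of Col1a1 and Col16a1 rest on 1 and 2 KO counts.

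Of 9 fibrillar chains tested in tumours, 7 fell. Col1a1 was at 203 and 331 CPM in KO tumours, against 882, 628 and 1620 CPM in WT tumours, and fell by 1.97 ± 0.44 on the log2 scale (SE, adjusted p = 0.0253). Col1a2, its partner in the type I trimer, was at 142 and 206 CPM in KO tumours, against 566, 370 and 974 CPM in WT tumours, and fell by 1.88 ± 0.42 (SE, adjusted p = 0.0252). Both KO libraries lay below all WT libraries for both chains, and WT tumour 3 was the highest. Col3a1, the chain of reticular fibres, was at 86.9 and 129 CPM in KO tumours, against 349, 210 and 740 CPM in WT tumours, and fell by 2.00 ± 0.53 (SE, adjusted p = 0.0422). These 3 calls were lost without KO tumour 1 (adjusted p = 0.116, 0.119 and 0.179) or WT tumour 1 (0.0558, 0.0587 and 0.079), and that of Col3a1 also without KO tumour 3 (0.0746).

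Type V chains nucleate the fibrils of type I collagen. Col5a1 was at 45.7 and 40.2 CPM in KO tumours, against 126, 99.7 and 203 CPM in WT tumours (log2 fold change -1.73 ± 0.31, SE, adjusted p = 0.0134, or 0.0522 without KO tumour 1). Col5a2, which lies tail to tail with Col3a1 on chromosome 1, was at 21.9 and 38.8 CPM in KO tumours, against 128, 84.2 and 156 CPM in WT tumours (log2 fold change -2.01 ± 0.34, SE, adjusted p = 0.0117). All KO values lay below all WT values for both. Col5a3 and Col11a2 also fell, by 1.55 and 1.41 on the log2 scale; the call of Col5a3 was lost without KO tumour 1 or any 1 of the WT tumours (adjusted p = 0.0533 to 0.129) and that of Col11a2 without any 1 of the 5 libraries (0.0608 to 0.138). Col27a1 differed from the rest of its class, with 167 and 117 CPM in KO tumours, against 177, 157 and 141 CPM in WT tumours, overlapping ranges and a log2 fold change of -0.15 ± 0.18 (SE, adjusted p = 0.588). Col24a1, with 6 counts in KO tumours and 74 in WT tumours, was not called.

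Among fibril-associated chains, Col12a1 (ENSMUSG00000032332, chromosome 9, bases 79598991 to 79718831, minus strand), which binds the surface of type I fibrils, was at 12.6 and 17.2 CPM in KO tumours, against 128, 91 and 181 CPM in WT tumours. It fell by 3.16 ± 0.34 on the log2 scale (SE, adjusted p = 0.0031). Col16a1 was at 2.24 and 3.48 CPM in KO tumours, against 27, 33.7 and 46.4 CPM in WT tumours, and fell by 3.64 ± 0.34 (SE, adjusted p = 0.00212). For both chains the highest KO value was below the lowest WT value by a wide margin. Col9a3, a chain of cartilage type IX collagen, was at 0.475 and 1.28 CPM in KO tumours, against 4.7, 13.2 and 3.73 CPM in WT tumours, and fell by 3.01 ± 0.75 (SE, adjusted p = 0.036), with 234 exon bases shared with Tcfl5 on the other strand. The Col9a3 call was lost without KO tumour 1 (adjusted p = 0.146), WT tumour 1 (0.0644) or WT tumour 2 (0.0775). Col14a1 and Col20a1 overlapped between the groups and were not called.

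All 3 type VI chains tested fell in tumours. Col6a1 was at 19.3 and 45.7 CPM in KO tumours, against 293, 241 and 264 CPM in WT tumours, and fell by 3.03 ± 0.37 on the log2 scale (SE, adjusted p = 0.00428). Col6a2 was at 14.6 and 36.2 CPM in KO tumours, against 142, 102 and 148 CPM in WT tumours, and fell by 2.36 ± 0.39 (SE, adjusted p = 0.0109). The 3 WT tumours were close to one another for both chains, while KO tumour 3 was above KO tumour 1. Col6a3, the chain with the long amino-terminal domain repeats, was at 19.4 and 33.6 CPM in KO tumours, against 80.9, 52.3 and 135 CPM in WT tumours, and fell by 1.75 ± 0.43 (SE, adjusted p = 0.0352). The Col6a3 call was lost without KO tumour 1 (adjusted p = 0.152), WT tumour 1 (0.078) or WT tumour 3 (0.0586).

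Of the 9 basement membrane and anchoring chains, 3 fell in tumours. Col7a1 was at 4.82 and 3.11 CPM in KO tumours, against 75.9, 64.1 and 54.8 CPM in WT tumours, and fell by 4.04 ± 0.26 on the log2 scale (SE, adjusted p = 0.0009), the largest fall of any chain in tumours. Col4a5 was at 5.5 and 17.1 CPM in KO tumours, against 49.6, 43.3 and 35.6 CPM in WT tumours, and fell by 1.91 ± 0.45 (SE, adjusted p = 0.0295). KO and WT did not overlap for either chain, and the KO tumours differed from each other more in Col4a5 than in Col7a1. Col18a1 was at 368 and 406 CPM in KO tumours, against 548, 550 and 696 CPM in WT tumours, and fell by 0.63 ± 0.15 (SE, adjusted p = 0.0327). The Col4a5 call was lost without WT tumour 1, 2 or 3 (adjusted p = 0.0906, 0.0898 and 0.0585) and that of Col18a1 without KO tumour 1, WT tumour 1 or WT tumour 2 (0.12, 0.0749 and 0.0836).

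The pair Col4a1 and Col4a2 was not called in tumours. Col4a1 was at 421 and 492 CPM in KO tumours, against 544, 504 and 558 CPM in WT tumours, a log2 fold change of -0.23 ± 0.13 (SE, adjusted p = 0.239). Col4a2 was at 186 and 234 CPM in KO tumours, against 294, 254 and 314 CPM in WT tumours, a log2 fold change of -0.46 ± 0.16 (SE, adjusted p = 0.0847). The KO values lay below the WT values without overlap, by a small distance for Col4a1. Col4a6, the head-to-head partner of Col4a5, was at 0.339 and 5.24 CPM in KO tumours, against 8.66, 5.59 and 18.8 CPM in WT tumours, so the 2 KO tumours lay far apart. Its log2 fold change was -1.97 ± 0.97 (SE, adjusted p = 0.199). Col4a3, Col4a4 and Col15a1 overlapped between the groups.

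Of the remaining chains, Col13a1, a transmembrane chain known from cell junctions, had 15 counts in KO tumours and 169 in WT tumours and fell by 2.64 ± 0.55 on the log2 scale (SE, adjusted p = 0.0211). Col8a1 was at 27.2 and 27.8 CPM in KO tumours, against 49.8, 42.2 and 77.5 CPM in WT tumours, and fell by 1.04 ± 0.27 (SE, adjusted p = 0.0386). Col28a1, a chain known from peripheral nerve, had 14 counts in KO tumours and 93 in WT tumours and fell by 1.92 ± 0.52 (SE, adjusted p = 0.0443). All 3 calls were lost without KO tumour 1 (adjusted p = 0.0786, 0.137 and 0.161) and without WT tumour 1 (0.06, 0.0725 and 0.132). Without WT tumour 2 the calls of Col13a1 (0.0507) and Col28a1 (0.127) were lost, without WT tumour 3 that of Col28a1 (0.0516) and without KO tumour 3 that of Col8a1 (0.0916). Col10a1, known from hypertrophic cartilage, was the 1 chain with a fold change above 0, at 31.3 and 4.33 CPM in KO tumours, against 3.85, 3.61 and 2.11 CPM in WT tumours. KO tumour 1 alone held 462 of the 533 KO counts, and the log2 fold change of 2.48 ± 0.74 was not called (SE, adjusted p = 0.0595), but passed without KO tumour 3, at 3.31 (adjusted p = 0.00354). Col10a1 shares 18 exon bases with Nt5dc1 on the opposite strand.

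The chains that fell in culture and those that fell in tumours were then set side by side. The 8 chains lower in KO in both settings were Col1a1, Col4a5, Col5a1, Col6a1, Col6a2, Col7a1, Col8a1 and Col16a1, which is 80% of the culture list and 42.1% of the tumour list. Over all genes, 748 were lower in both settings, which is 34% of the 2203 lower in culture and 42.1% of the 1778 lower in tumours, so the share of the tumour list was that of all genes. Of the 11 others lower in tumours, 10 had too few counts in culture to be tested. Col27a1 was called lower in culture and not in tumours. Col26a1 was called lower in culture but was not tested in tumours, where it had 0 counts in KO and 4 in WT. Col7a1 had log2 fold changes of -4.04 in tumours and -4.40 in culture, and Col5a1 of -1.73 and -1.80.

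The difference between the 2 KO effects was tested directly as an interaction over all 9 libraries, where 5.69% of 16793 genes were called, 4.15% as higher. Of 33 chains, 2 were called, both with a smaller fall in tumours than in culture. The difference for Col27a1 was 1.53 ± 0.30 on the log2 scale (SE, adjusted p = 0.0152), with the KO effect at -0.15 in tumours and -1.71 in culture. For Col6a1 it was 2.01 ± 0.50 (SE, adjusted p = 0.0401), with the KO effect at -3.03 in tumours and -5.06 in culture. The Col27a1 call was lost without KO culture 2 (adjusted p = 0.0684) or WT culture 1 (0.0594). The Col6a1 call was lost without any 1 of the 4 cultures (adjusted p = 0.0956 to 0.186) or of the 3 WT tumours (0.0529 to 0.0803). The other 31 chains were not called, which does not show that their effects were equal. Among them Col1a2, Col13a1 and Col24a1 had no count in any culture, so their difference could not be estimated.

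Tumours were also set against culture within each genotype. Col1a2, Col3a1, Col5a2 and Col12a1, at or near 0 counts in culture, were at 12.6 CPM or more in every tumour, while Col2a1, Col9a1, Col9a2, Col19a1 and Col22a1 had at most 5 counts in the tumours of either genotype. Col4a1 and Col4a2 differed by less than 1 on the log2 scale. Each setting carries its own batch tag in the labels, so batch, dissociation, host cells and growth as a tumour cannot be told apart in this comparison. In KO, 26 chains were tested between tumours and culture, of which 17 rose, 2 fell and 7 were not called, with 55.4% of 14684 genes called, 30.4% as higher. Their groups did not overlap for 23 of the 26 chains, against 82.1% of all genes. In WT, 33 were tested, of which 27 rose, 1 fell and 5 were not called, with 69.9% of 16234 genes called, 37.5% as higher. Their groups did not overlap for 32 of the 33 chains, against 84% of all genes. The median log2 fold change of the chains was 4.34 in KO and 4.35 in WT (3.93 in WT with chains at 0 in culture placed at their lower bound), against 0.10 and 0.12 over all genes. Scaling by library totals moved the median of all genes to 0.49 in KO and 0.63 in WT. Of the tested chains, 14 in KO and 18 in WT passed the low-count filter only with the tumours, so the counts and medians describe the tested chains.

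Type I, III and XII chains were among those with the widest gaps. Col1a2, with no count in culture, was at least 1710-fold higher in KO tumours than KO culture and at least 5710-fold higher in WT tumours than WT culture, taking 3 counts over the culture group as the limit that 0 allows. Col3a1 was at least 3920-fold higher in WT tumours, and rested on 1 count in KO culture with a ratio of 3190 (exact 95% interval 573 to 126000). Col12a1 was at least 147-fold higher in KO tumours than in KO culture, and its ratio in WT was 3560 over 1 culture count (exact 95% interval 638 to 141000). Col6a1 and Col6a2 were present in WT culture already, and Col6a1 rose by 4.58 ± 0.48 on the log2 scale in KO and by 2.47 ± 0.15 in WT (SE, adjusted p = 0.000103 and 2.68e-06). Col6a3, absent from KO culture, was at least 262-fold higher in KO tumours, and its ratio in WT was 800 over 3 culture counts (exact 95% interval 274 to 3880). Col27a1 rose by 4.30 ± 0.28 in KO and by 2.68 ± 0.16 in WT (SE, adjusted p = 1.14e-05 and 2.68e-06).

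Among type IV chains, Col4a1 had log2 fold changes of tumours over culture of 0.24 ± 0.20 in KO, which was not called, and 0.69 ± 0.16 in WT, which was (SE, adjusted p = 0.337 and 0.00361). Col4a2 was called in neither genotype, with 0.37 ± 0.16 in WT and -0.29 ± 0.22 in KO, a sign that turned to 0.10 when library totals alone set the scale. Col4a5 fell by 1.58 ± 0.44 in KO (SE, adjusted p = 0.0129, or 0.0523 without KO culture 2), with 5.5 and 17.1 CPM in KO tumours against 25.8 and 25.4 CPM in KO culture, and by 0.35 in WT without a call, or rose in value by 0.16 under library totals. Col26a1 was the 1 chain called lower in both genotypes, and it passed the low-count filter only with the cultures, where it was high. It had 0 counts in KO tumours and 37 in KO culture, at least 13.1-fold lower, and 4 counts in WT tumours against 308 in WT culture, a log2 fold change of -7.20 ± 0.40 (SE, adjusted p = 2.08e-06).

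**Figure D4:**
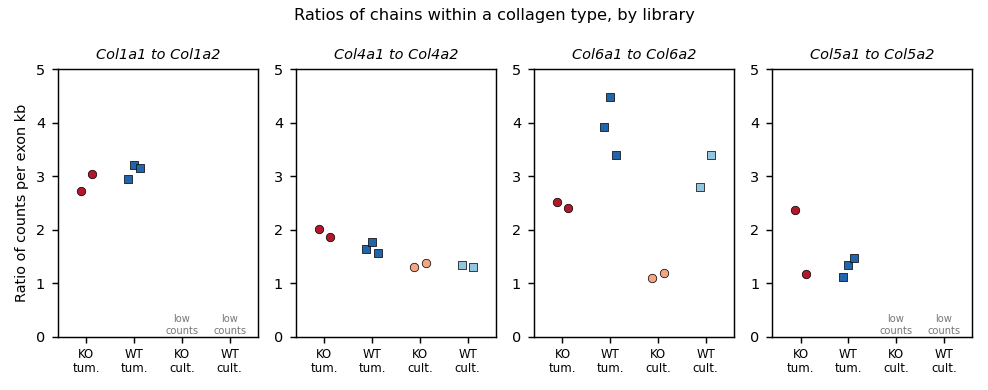
Ratio of chains of the same collagen type in each library, as counts per exon kb (union of exons), by group. The Col6a1 to Col6a2 ratio is 1.1 and 1.18 in KO culture against 2.79 and 3.4 in WT culture, and the Col4a1 to Col4a2 ratio is above 1.5 in all tumours and below 1.4 in all cultures.

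Chains of the same trimer can also be read as ratios within a library, which do not depend on library scaling. The Col6a1 to Col6a2 ratio per exon kb was 2.51 and 2.4 in KO tumours, against 3.93, 4.49 and 3.39 in WT tumours, and 1.1 and 1.18 in KO cultures, against 2.79 and 3.4 in WT cultures. It was lower in KO in both settings with no overlap between groups. The Col4a1 to Col4a2 ratio was 2.01 and 1.86 in KO tumours and 1.64, 1.76 and 1.57 in WT tumours, against 1.31 and 1.38 in KO cultures and 1.33 and 1.31 in WT cultures. All 5 tumours were above all 4 cultures. The Col1a1 to Col1a2 ratio was 2.72 and 3.05 in KO tumours and 2.95, 3.21 and 3.16 in WT tumours, overlapping ranges, although both chains fell. The Col5a1 to Col5a2 ratio was 2.36 and 1.17 in KO tumours and 1.11, 1.34 and 1.47 in WT tumours. The size of each ratio depends on the exon length taken, as with the longest transcript the Col1a1 to Col1a2 ratio averaged 1.38 in KO tumours and 1.48 in WT tumours, but the order of the libraries does not.

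Genes that make and process collagen were counted from a list of 32. In tumours 30 were tested, of which 11 fell and 1 (Loxl4) rose, with a median log2 fold change of -0.69, where 10.9% of all genes fell and 8.78% rose. In culture 24 were tested, of which 11 fell and 3 rose, with a median of -0.39, where 16.2% of all genes fell and 9.27% rose. Adamts14, P3h3 and Adamts2, at 0.138 CPM or less in KO cultures, passed the low-count filter only with the WT cultures. In tumours Tll1, Colgalt2 and Adamts14 passed it only with WT and P3h2 only with KO. Passing with WT alone favours a fold change below 0, so these counts and medians describe the tested genes. Fkbp10, a chaperone of procollagen, had the smallest p of the list in both settings. It was at 12.6 and 14.8 CPM in KO tumours, against 66.9, 55.4 and 72.2 CPM in WT tumours, and at 1.2 and 1.31 CPM in KO cultures, against 19.9 and 18.8 CPM in WT cultures. Its log2 fold changes were -2.25 ± 0.17 and -3.95 ± 0.25 (SE, adjusted p = 0.00129 and 4.42e-07). Serpinh1, the collagen chaperone HSP47, fell by 2.34 ± 0.19 in culture (SE, adjusted p = 2.30e-06), with 18.7 and 24.1 CPM in KO cells against 99.5 and 117 CPM in WT cells, and was not called in tumours (log2 fold change -0.64 ± 0.36, adjusted p = 0.253). Loxl2, a lysyl oxidase that cross-links collagen, was at 36.4 and 35.7 CPM in KO tumours, against 95, 79.7 and 92.8 CPM in WT tumours, and at 11.5 and 12.4 CPM in KO cultures, against 40.7 and 31.7 CPM in WT cultures. It fell in both settings (adjusted p = 0.00277 and 6.70e-05), while Loxl4 of the same family rose by 1.06 in tumours and 0.91 in culture on the log2 scale (adjusted p = 0.00623 and 0.00128).

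Of 11 collagen receptor genes, 9 were tested in tumours, where Itga2 and Itgb1 fell, and 6 in culture, where Itga2 and Itga10 fell and Ddr2 and Itga1 rose. Of all genes 19.7% were called in tumours and 25.5% in culture. Itga2 encodes the CD49b knocked out in KO, so its calls are part of the design. No result is read from the receptor counts set against these shares. Itgb1, the partner of Itga2, was at 716 and 625 CPM in KO tumours, against 1000, 967 and 956 CPM in WT tumours (log2 fold change -0.54 ± 0.12, SE, adjusted p = 0.0266). Ddr2, a receptor kinase for fibrillar collagen, was at 4.05 and 4.56 CPM in KO cultures, against 1.14 and 1.15 CPM in WT cultures (log2 fold change 1.90 ± 0.33, SE, adjusted p = 0.000911). Itga1, the other main collagen-binding alpha subunit, was at 65.1 and 63.5 CPM in KO cultures, against 46.3 and 37.5 CPM in WT cultures (log2 fold change 0.62 ± 0.17, SE, adjusted p = 0.0181).

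Lists of cell type markers differed between the tumour groups in different directions. The 15 fibroblast and pericyte markers summed to 233 and 226 CPM in KO tumours, against 506, 325 and 534 CPM in WT tumours. Postn alone was at 46.1 and 65.1 CPM in KO tumours, against 297, 156 and 212 CPM in WT tumours. Without Postn the marker sums overlapped, at 187 and 161 CPM in KO tumours, against 209, 169 and 322 CPM in WT tumours. Of 13 tested, 4 fell (Lum, Pdpn, Tagln and Postn), where 10.9% of all genes fell. Lum, Pdpn and Pdgfra passed the low-count filter only with the WT tumours, which favours a fold change below 0 for them. Pdgfra, Pdgfrb, Dcn, Thy1, Fap, Acta2, Rgs5, Cspg4 and Mfap5 were not called. Of the 13, 11 had fold changes below 0, and all 15 markers had counts in each tumour group. In culture the sum was 0.798 to 1.56 CPM in KO cells and 0.433 to 0.604 CPM in WT cells, with Dcn, Lum, Thy1, Fap and Postn at 0 in all 4 libraries. The fibrillar chains summed to 678 and 881 CPM in KO tumours, against 2270, 1580 and 3900 CPM in WT tumours. Divided by the marker sum this was 2.91 and 3.9 in KO tumours, against 4.48, 4.87 and 7.31 in WT tumours. The order of KO below WT held over 1 of 2 other marker sums and not over the other, both chosen after seeing the data. Without Postn, the ratio was 3.63 and 5.48 in KO tumours, against 10.9, 9.37 and 12.1 in WT tumours. Over Pdgfra, Dcn and Lum alone, low markers that summed to 2.37 and 6.83 CPM in KO tumours, against 20.8, 10.2 and 36.1 CPM in WT tumours, it was 286 and 129 in KO tumours, against 109, 155 and 108 in WT tumours, with overlapping ranges and the KO mean above the WT mean.

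**Figure D5:**
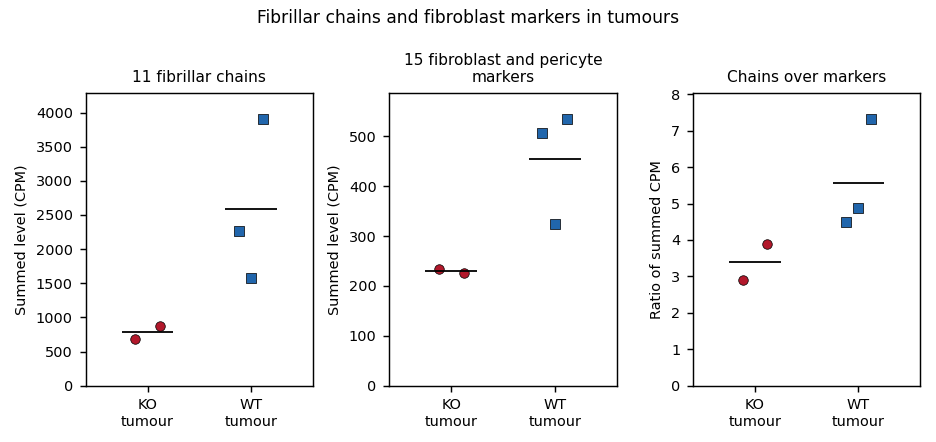
Summed CPM of the 11 fibrillar chains, summed CPM of the 15 fibroblast and pericyte markers, and their ratio in each tumour (points), with group means as lines. The ratio is 2.91 and 3.9 in the KO tumours and 4.48 to 7.31 in the WT tumours, an order that did not hold over Pdgfra, Dcn and Lum alone.

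T cell markers went the other way, at 34.1 and 76.8 CPM in KO tumours, against 23.7, 24.1 and 6.29 CPM in WT tumours. The adipocyte list summed to 164 and 160 CPM in KO tumours, against 83.5, 78.2 and 71.4 CPM in WT tumours. Cidec and Pnpla2 held most of that sum in every tumour, while Adipoq, Plin1 and Lep were at 0.226 CPM or less. In culture the adipocyte list summed to 112 and 96.7 CPM in KO cells, against 63.9 and 55 CPM in WT cells. Skeletal muscle markers summed to 78 and 14.3 CPM in KO tumours, against 24.3, 31.6 and 163 CPM in WT tumours, with WT tumour 3, the library with the highest Col1a1, also highest here. Endothelial markers summed to 70.4 and 138 CPM in KO tumours, against 152, 124 and 286 CPM in WT tumours, and the epithelial list to 11600 and 8780 CPM in KO tumours, against 6960, 6460 and 5520 CPM in WT tumours. Genes of the epithelial list went both ways in KO tumours. Krt8 and Krt19 rose by 0.97 and 1.04 on the log2 scale (edgeR adjusted p = 0.0149 and 0.015). Epcam and Esrp1 fell by 1.57 and 2.96 (0.0243 and 0.0179). The macrophage list overlapped between the groups, at 464 and 643 CPM in KO tumours and 493 to 606 CPM in WT tumours, as did the Schwann cell and skin keratinocyte lists. Cd14 was the largest part of the macrophage sum in every tumour (211 to 380 CPM). Cd14 and Mrc1 were at 153 CPM or more in every culture, so that sum does not measure macrophages alone. Of the 10 macrophage genes, 0 were called between the tumour groups and 3 had fold changes below 0. The part of the host cells in the collagen differences of the tumours was not tested. In culture Dcn, Lum, Thy1, Fap and Postn (fibroblast), Vwf and Cldn5 (endothelial) and C1qa and Itgam (macrophage) had no count in any library. The whole endothelial list summed there to 9.62 and 10.4 CPM in KO cells, against 12.2 and 18.3 CPM in WT cells, and the whole macrophage list to 523 and 566 CPM in KO cells, against 463 and 513 CPM in WT cells. In these cultures Col6a1, Col6a2, Col7a1, Col5a1 and Col27a1 were lower in KO cells.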

How the data were processed

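Bulk poly(A) RNA-seq libraries were prepared with a UMI kit and ERCC spike-ins and were deduplicated by UMI, per the labels' protocols. fastp 0.23.1, STAR 2.5.2b, featureCounts (Subread 1.5.2), DESeq2 and the mouse builds GRCm38 and mm10 are named in the submitters' processing notes. No source used here states an annotation release or strand setting. Tables of raw counts per Ensembl gene, deposited by the authors, were used, and their normalized and rlog tables were not. Symbols came from GENCODE M21, which named 49326 of 49671 gene IDs.

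Counts were tested in R 4.3.3 with edgeR 4.0.16, using TMM scaling, filterByExpr (minimum count 10, total 15), the quasi-likelihood F test and Benjamini-Hochberg adjustment over all genes tested at 0.05. Each comparison used the libraries of its 2 groups, and the interaction used all 9. CPM were scaled by TMM within a setting, and levels per length divide them by the union of a gene's exons. A group at 0 was given a floor of 3 counts. Intervals for ratios of counts are exact 95% intervals and cover counting error only. Members described by value were those called in a comparison, with the abundant type IV chains; from the synthesis and receptor lists, at most 4 genes of smallest p were named. The members and lists were chosen with earlier results of these data known. The fits were tested on simulated counts. Alternatives were other scalings and filters, DESeq2 1.42.0, 1 fit of all libraries, a replicate block, and leaving out each library.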

Additional observations from a re-analysis of the deposited data

Results flagged for a closer look

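By the interaction test over all 9 libraries (edgeR), the KO effect was called different between tumours and culture for 2 of 33 collagen chains. Of all 16793 genes tested 5.69% were called, so the share of chains was close to that of all genes. For Col6a1 the effect in tumours minus that in culture was 2.01 on the log2 scale, and for Col27a1 it was 1.53. In both cases the KO level was further below WT in culture than in tumours. Both calls were lost when some single libraries were left out. That of Col6a1 was also lost with the replicate block (edgeR adjusted p = 0.0721 in culture alone, 0.129 in each setting). Host cells add RNA to the tumour libraries of both genotypes, and their part in these 2 differences was not tested. No group held enough libraries for a check of single outlying samples.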

How the results depend on the processing

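Counts of called chains stayed within 1.5 times the reported ones under RLE scaling, library totals, other filters, DESeq2, 1 fit of all 9 libraries and the replicate block, except for the interaction. For the interaction, 2 chains were called; library totals gave 1, no filter 8 (4 lower, 4 higher), and the replicate block 1, in culture alone or in each setting (blocking each setting was chosen after seeing the data). Leaving out single libraries gave 0 to 5 interaction calls (5 without KO tumour 3, of which 3 lower), 7 to 19 for KO against WT tumours, 8 to 10 in culture, 18 to 21 for KO tumours against culture and 25 to 29 for WT. With the replicate number as a block, 14 chains were called in culture (11 lower, 3 higher), where Col4a1 (log2 fold change 0.30, adjusted p = 0.000139) and Col4a2 (0.27, 0.000411) were now called higher and Col18a1 (-0.33, 1.90e-05) lower. The block gave 17 chains, all lower, for KO against WT tumours and 29 between WT tumours and culture. For KO against WT tumours the block lost Col4a5, Col9a3, Col11a2, Col18a1 and Col28a1 (edgeR adjusted p = 0.0505 to 0.178). It added Col4a6, Col15a1 and Col23a1 (0.0348 to 0.0479). Differences between same-numbered libraries correlated at 0.40 between KO and WT over 13573 genes in culture and at 0.02 over 16257 genes in tumours (columns 1 and 3), but with 2 pairs these are shared numbers only. In tumours the block and the correlation matched KO tumour 3 to WT tumour 3 by column number alone. The labels give no KO tumour that number. By column number, no paired analysis was possible for KO tumours against KO culture because the columns share a single number. The beaded sum in KO culture was 2.72 CPM by library totals. With the longest transcript in place of the exon union, mean ratios were 1.38 in KO and 1.48 in WT tumours (Col1a1 to Col1a2), 2.13, 1.82, 1.48 and 1.46 in KO tumours, WT tumours, KO cultures and WT cultures (Col4a1 to Col4a2), 1.55, 2.48, 0.719 and 1.95 in the same order (Col6a1 to Col6a2) and 0.912 in WT tumours (Col5a1 to Col5a2). Signs turned for a few chains, none of them called. For KO over WT tumours, log2 fold changes with single libraries left out ran from -0.42 to 0.09 for Col27a1 and from -1.20 to 0.26 for Col4a3. For KO tumours over culture they ran from -0.20 to 0.41 for Col20a1, -0.21 to 1.86 for Col9a3 and -3.81 to 0.16 for Col4a6; Col4a2 was 0.10 by library totals, and Col4a5 in WT tumours over culture 0.16. The cause of these shifts was not tested. A chain that was not called is not shown to be equal between groups, and 11 chains had too few counts for any test.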
